A study of Mus musculus with 4 samples.

Results

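Calcitonin, the calcitonin gene-related peptides (CGRP) and adrenomedullin form a family of secreted peptides that act through shared receptor parts. The genes examined here were the peptide genes Calca, Calcb and Adm, the receptor genes Calcr and Calcrl, and the accessory protein genes Ramp1, Ramp2 and Ramp3. They were chosen by gene symbol, as 8 genes of which 7 had a named probe, out of 13765 genes tested on the array. Each of the 7 was read by a single probe with a value on all 4 arrays. Ramp3 had no named probe and was not analysed here. The family was taken up because the falls of Calca and Calcb in this same comparison were already known, so the values of the members are given as a description, with no test.

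The cells were NSCL61, a mouse line used as a model of glioma-initiating cells, which derives from p53-deficient neural stem cells given an oncogenic form of HRas. The labels give the strain as C57BL6, the tissue as newborn (P0) brain, and the cell of origin as a neural stem cell. The 2 arrays of Eva1 shRNA cells read NSCL61 carrying a short hairpin RNA against Eva1, an adhesion protein gene now named Mpzl2, after transfection and hygromycin selection. The 2 control arrays carry the name of the line alone, and the series title speaks of a control hairpin. Both groups therefore share the oncogenic HRas, the loss of p53 and the strain. The labels name neither the hairpin sequence nor separate cultures for the arrays, so p-values measure the spread between these arrays, which may be technical. RNA of all cells in a culture was pooled, so fewer cells of a type and less RNA per cell cannot be told apart.

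The peptides are cut from longer prohormones and amidated before release. Calca is spliced in alternative ways to give calcitonin or alpha-CGRP, Calcb gives beta-CGRP, and Adm gives adrenomedullin, a vasodilator that hypoxia is known to induce. Calcr is the calcitonin receptor. Calcrl, the calcitonin receptor-like receptor, needs a receptor activity-modifying protein (RAMP) at its side: with Ramp1 it forms the CGRP receptor, and with Ramp2 or Ramp3 an adrenomedullin receptor. These receptors act mainly through the G protein Gs and cyclic AMP. In the nervous system CGRP is best known from sensory and motor neurons, while Calcrl and Ramp2 are typical of blood vessel endothelium.

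Intensities are the deposited values, on a linear scale with a median near 25 on each array. Log2 changes are Eva1 shRNA minus control after quantile normalization, with limma's standard error (SE). A gene was called when its adjusted p was under 0.05 over all genes in limma's two-sided test. The arrays had values for 21842 and 21513 probes in Eva1 shRNA cells, and for 20662 and 20934 probes in control cells. Filled values of probes that were blank on 1 to 3 arrays had a median of 2.16 and a 95th percentile of 4.71, which marks the range where a signal is at the edge of detection. The targeted gene Mpzl2 had 8.20 and 6.21 in Eva1 shRNA cells, against 55.0 and 54.4 in control cells (log2 change -3.12, and -1.71 with 16 units added). Among 6 neural stem and glioma cell markers, 5 had a named probe, and the intermediate filament gene Nes was bright on all arrays, at 434.8 and 429.9 in Eva1 shRNA cells and at 532 and 537 in control cells. Sox2 had no named probe.

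All 3 peptide genes were lower in Eva1 shRNA cells, and Ramp2 was higher. After normalization Calca was 17.3-fold lower, Calcb 9.18-fold lower and Adm 2.40-fold lower. Ramp2 in Eva1 shRNA cells was 2.95-fold above the edge of detection by its mean log2 deposited intensity. Its control values lay below that edge. Calcr, Calcrl and Ramp1 were not called. In counts, 3 of the 7 members measured were called lower, where 13.5% of all genes were, and 1 was called higher, where 12.5% were. In either direction 26.0% of all genes were called. The median log2 change was -0.71 over the 7 members and -0.01 over all genes. Since Calca and Calcb led to the choice of the family, nothing is read from these counts.

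**Figure D1:**
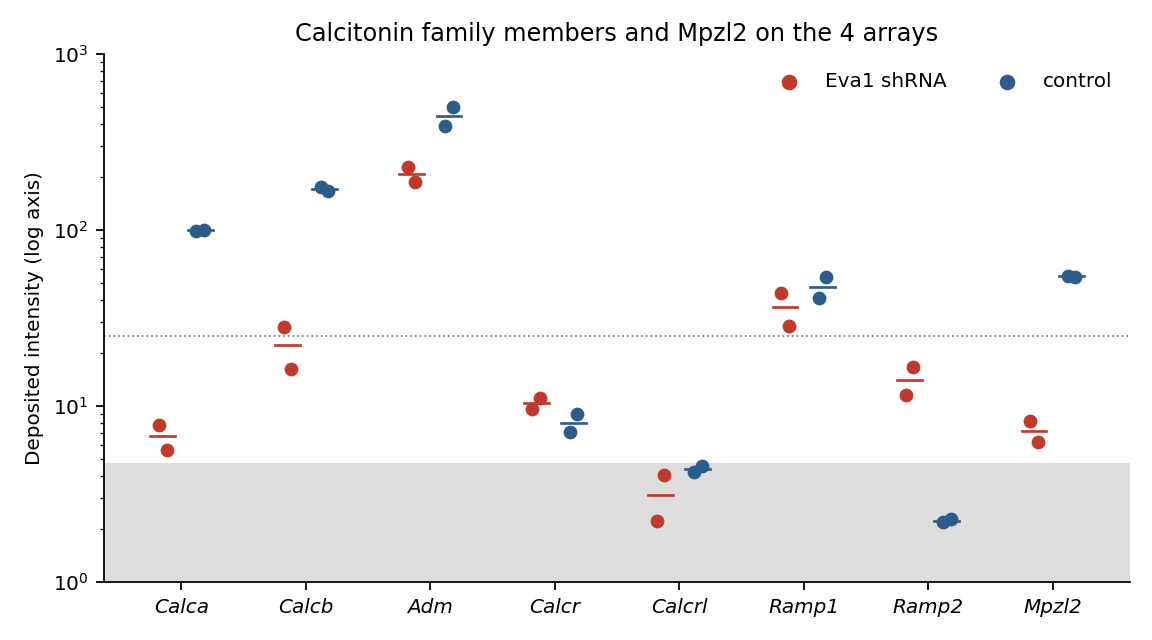
Deposited intensity (log axis) of the 7 measured members and of the targeted gene Mpzl2 on each array, with Eva1 shRNA arrays (red) left of control arrays (blue); short lines are group means of 2 arrays. The dotted line marks 25, the array median, and the grey band runs up to 4.71, the 95th percentile of values of probes blank on some arrays. Calca and Calcb stand well apart between groups, Calcrl lies inside the band on every array, and Ramp2 lies inside it in control cells.

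Calca had intensities of 7.81 and 5.63 in Eva1 shRNA cells, against 98.8 and 100.5 in control cells, with means of 6.72 ± 1.54 in Eva1 shRNA cells and 99.6 ± 1.22 in control cells (SD, n = 2 each). Both Eva1 shRNA arrays were thus far below both control arrays, and the control arrays were close to each other. The log2 change was -4.11 (SE 0.18), the fall of rank 4 among all 13765 genes. On the arrays of Eva1 shRNA cells the probe stood above 31.5% and 25.7% of filled cells, and on the control arrays above 69.2% and 69.7%. The values of Eva1 shRNA cells lay a little above the range of partly blank probes, so the size of the change depends on signal near background. When 16 intensity units were added to every value before taking log2, a scale on which dim probes change less, the log2 change was -2.46. The platform annotation does not say whether the probe reads the calcitonin or the CGRP form of the transcript.

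Calcb had intensities of 28.2 and 16.2 in Eva1 shRNA cells, against 174.9 and 167.8 in control cells, with means of 22.2 ± 8.52 in Eva1 shRNA cells and 171 ± 5.05 in control cells (SD, n = 2 each). The groups did not overlap, but the Eva1 shRNA arrays differed from each other more than the control arrays did. The log2 change was -3.20 (SE 0.26), the fall of rank 24. It was -3.58 with the first Eva1 shRNA array left out, -2.83 with the second left out, and -2.46 with 16 units added. Calca and Calcb are close relatives in sequence, and signal shared between their probes was not tested, since probe sequences were not used here.

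Adm was bright in both groups, with 229.6 and 187 in Eva1 shRNA cells and 390.0 and 501 in control cells. Its mean was 209 ± 29.8 in Eva1 shRNA cells and 446 ± 78.8 in control cells (SD, n = 2 each). Each Eva1 shRNA array was below each control array, and the fall was a step smaller than those of the CGRP genes. The log2 change was -1.26 (SE 0.19), the fall of rank 576 and -1.20 with 16 units added. Without Eva1 shRNA array 2 Adm was not called, although its log2 change of -1.15 was similar.

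Calca and Adm are both on mouse chromosome 7, and their promoters are shown because both genes fell and a promoter was at hand for both. The sequences are the 250 bases before the gene start used in RefSeq's table (GRCm38.p6), chr7:114636358-114636607 on the minus strand for Calca and chr7:110627407-110627656 on the plus strand for Adm, each 5′ to 3′ on the gene's own strand. Capitals mark motifs found by exact match on either strand.
Calca: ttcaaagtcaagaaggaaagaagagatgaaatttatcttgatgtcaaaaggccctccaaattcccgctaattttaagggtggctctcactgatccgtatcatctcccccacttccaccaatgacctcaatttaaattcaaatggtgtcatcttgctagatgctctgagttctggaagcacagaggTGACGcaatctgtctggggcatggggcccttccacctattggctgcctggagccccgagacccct
Adm: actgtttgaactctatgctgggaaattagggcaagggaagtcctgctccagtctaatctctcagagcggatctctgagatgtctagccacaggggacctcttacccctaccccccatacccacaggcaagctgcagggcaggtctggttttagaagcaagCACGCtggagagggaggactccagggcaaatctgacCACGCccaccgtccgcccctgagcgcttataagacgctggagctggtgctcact
The letters searched were TGACG, the short cyclic AMP response site, TGACGTCA, the full palindromic site that contains it, and ACGTG and GCGTG, the cores that hypoxia-inducible factors bind.

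The Calca window held 1 short cyclic AMP site, TGACG on the gene's strand, with its first base 65 bases before the gene start, and no match to the hypoxia cores. The Adm window held GCGTG in 2 places, both on the opposite strand (read as CACGC in the printed sequence), starting 90 and 54 bases before the gene start, and no cyclic AMP site. Of 32851 promoter windows of the same length in the table, 17.8% held TGACG, 1.55% held TGACGTCA, 16.6% held ACGTG and 28.2% held GCGTG. Among the other members, the windows of Calcrl and Ramp1 held none of these letters, the 2 windows of Calcr held TGACG in 3 places in all, and that of Ramp3 held GCGTG in 2. Calcb and Ramp2 were not in the table. A match is a description of the sequence and does not show a bound site.

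Of the receptors, Calcr showed no clear difference. Calcr had 9.62 and 11.1 in Eva1 shRNA cells, against 7.10 and 8.98 in control cells, all below the array median. On the deposited scale the groups did not overlap, but after normalization they did, and the log2 change was 0.13 (SE 0.17). It ran from -0.01 without Eva1 shRNA array 2 to 0.37 with the authors' scaling, so its sign was not settled.

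Calcrl, the part shared by the CGRP and adrenomedullin receptors, was at the edge of detection on every array. It had 2.23 and 4.05 in Eva1 shRNA cells, against 4.21 and 4.59 in control cells, all under the 4.71 that marks the range of partly blank probes. The log2 change was -0.71 (SE 0.30) and was not called. The Eva1 shRNA arrays differed from each other by more than the nearer of them did from the control arrays. Without Eva1 shRNA array 2 Calcrl was called lower at -1.14, and without Eva1 shRNA array 1 it was not called at -0.27. The call of Calcrl thus turned on which Eva1 shRNA array was used.

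Ramp1, the partner that makes Calcrl a CGRP receptor, was above the array median on all arrays. It had 44.1 and 28.6 in Eva1 shRNA cells, against 41.0 and 53.9 in control cells. The deposited values overlapped, while after normalization the Eva1 shRNA arrays (5.33 and 4.78 on the log2 scale) were below the control arrays (5.48 and 5.81). The log2 change was -0.59 (SE 0.24) and was not called. It ran from -0.87 without Eva1 shRNA array 1 to -0.32 without Eva1 shRNA array 2, and it was called in 3 of 12 alternatives: with 16 units added, with a mean-variance trend in limma, and when the dimmest 25% of probes were left out.

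Ramp2, the partner that makes Calcrl an adrenomedullin receptor, was the member that rose. It had 11.6 and 16.6 in Eva1 shRNA cells, against 2.18 and 2.27 in control cells, with means of 14.1 ± 3.56 in Eva1 shRNA cells and 2.22 ± 0.0617 in control cells (SD, n = 2 each). Both control arrays were near 2.16, the median of filled values of partly blank probes, and both Eva1 shRNA arrays were well above that range while still under the array median of 25. Set against 4.71 in place of its control values, Ramp2 in Eva1 shRNA cells was 2.95-fold higher by its mean log2 deposited intensity. That value leaves out normalization between arrays and is no lower bound. The fitted log2 change of 2.46 (SE 0.23) rests on control values near background, and it was 0.66 with 16 units added, so its size was not settled. After normalization 6 of the 7 members had groups that did not overlap, where 66.7% of all genes did.

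**Figure D2:**
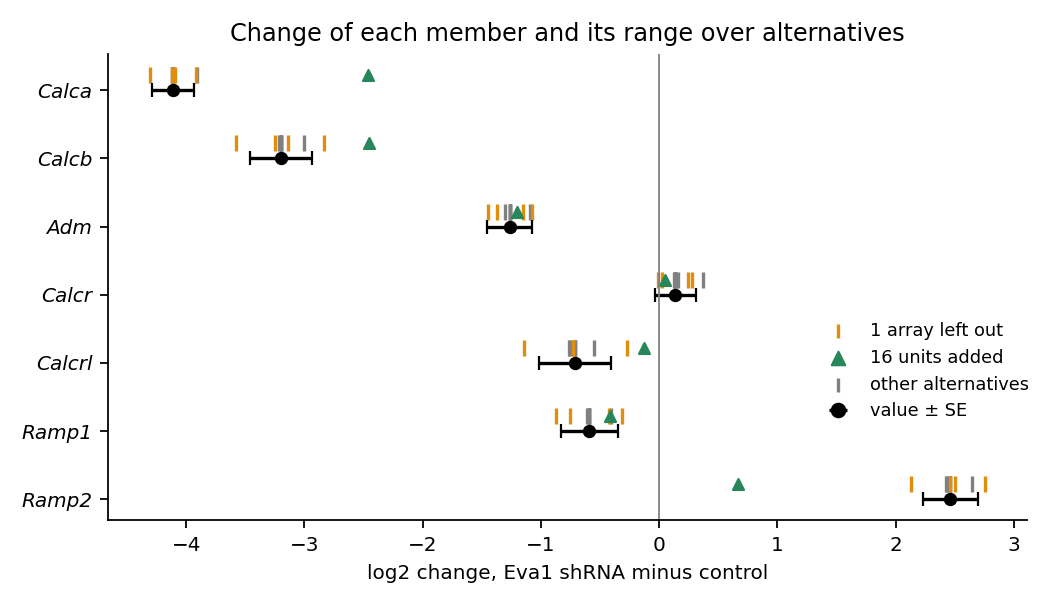
Log2 change (Eva1 shRNA minus control) of each measured member with its standard error (black), and above it the values in 12 alternatives (11 for Calcrl and Ramp2, which are left out with the dimmest probes): 1 array left out (orange), 16 intensity units added (green triangles) and the others (grey). Calca, Calcb and Adm lie left of 0 in every alternative and Ramp2 right of it, while adding 16 units moves Calca to -2.46 and Ramp2 to 0.66.

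**Figure D3:**
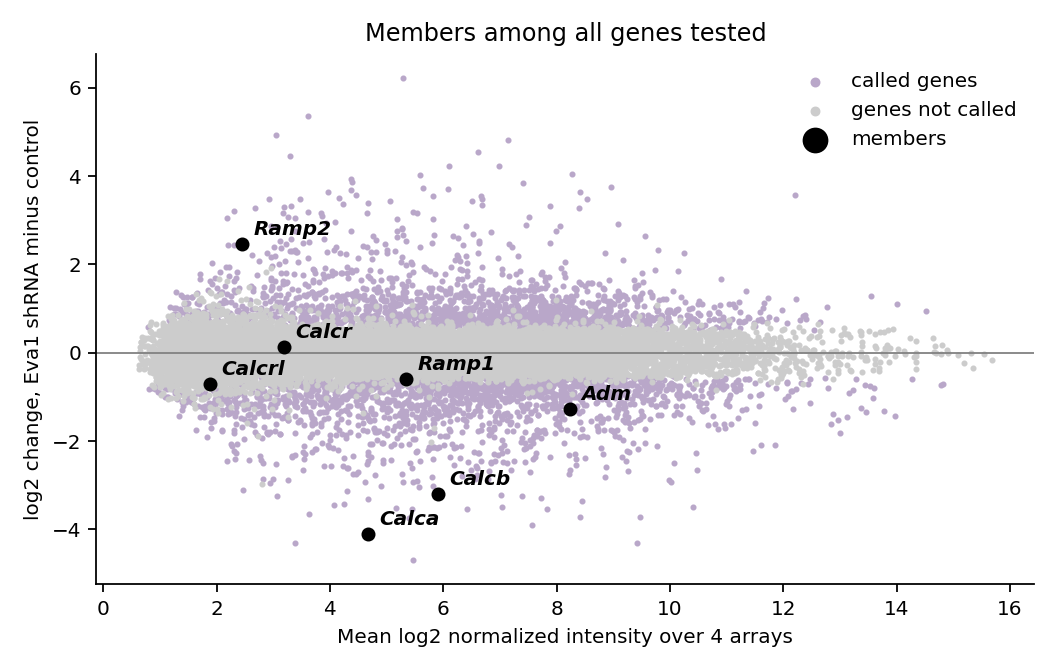
Log2 change (Eva1 shRNA minus control) against the mean log2 normalized intensity over 4 arrays for all 13765 genes, called genes in violet, genes not called in grey and members in black. Calca and Calcb lie at the lower edge of all genes, and Calcrl, Ramp2 and Calcr lie at low levels on the left.

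Calca and Calcb are next to each other among the tested genes of chromosome 7, with no tested gene between them. The next tested genes in line were Pde3b, Psma1 and Copb1 on the side of Calca, and Insc and Sox6 on the side of Calcb. None of these 5 was called, and their log2 changes lay between -0.50 (Pde3b) and 0.13 (Psma1), against -4.11 for Calca and -3.20 for Calcb. Adm lies elsewhere on the same chromosome. Of the 3 tested genes on each side of it, Ampd3, an AMP deaminase gene and its nearest tested neighbour on one side, was called lower with 13.0 and 14.2 in Eva1 shRNA cells, against 22.6 and 19.5 in control cells (log2 change -0.85, SE 0.17, limma adjusted p = 0.0215). That call was lost with blank cells filled and without Eva1 shRNA array 1, Eva1 shRNA array 2 or control array 1, with an adjusted p of up to 0.115. The other 5, Wee1, Swap70, Sbf2, Rnf141 and Lyve1, were not called and ranged from -0.35 to 0.10.

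**Figure D4:**
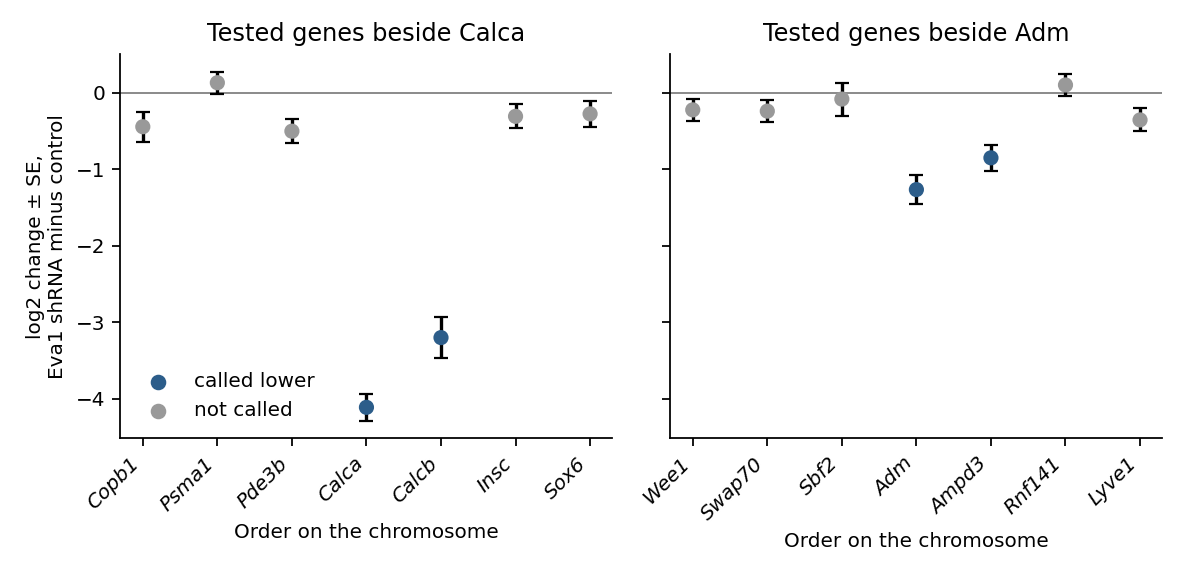
Log2 change with standard error (Eva1 shRNA minus control) of the tested genes on each side of Calca (left) and Adm (right), in their order on the chromosome; blue points were called lower, grey points were not called. Calca and Calcb stand at -4.11 and -3.20, beside neighbours between -0.50 (Pde3b) and 0.13 (Psma1). Ampd3 at -0.85 is the called neighbour of Adm.

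Over the 4 arrays, the profile nearest to that of Calca was Krt20, a keratin gene (distance 0.33), then Ero1a, an oxidase of the endoplasmic reticulum (0.43), and Plet1 (0.45). The distance is the Euclidean distance between mean-centred log2 values, with members and predicted genes passed over. For comparison, Calcb was at 0.95 from Calca, since its fall was smaller on this scale. With 16 units added the log2 changes of Calca and Calcb were both -2.46. Those of Krt20, Ero1a and Plet1 were then -4.18, -3.62 and -3.52. The profiles nearest to Adm were Tlr6, a Toll-like receptor gene (0.079), Cd164l2 (0.080) and Carf (0.094). These genes were much dimmer than Adm. With 16 units added their log2 changes were -0.45 (Tlr6), -0.62 (Cd164l2) and -0.22 (Carf), against -1.20 for Adm. Carf was then no longer called. With 4 arrays in 2 groups, such a likeness reflects mostly the size of the group difference.

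Of the other genes of the system, Ackr3, Cpe and Ece1 had the largest log2 changes among those called, and most genes of cyclic AMP signalling were not called. In 5 lists with 74 genes, 60 were tested, 7 rose and 4 fell, a share of 18.3% called where 26.0% of all genes were. Their median log2 change was -0.06. The lists were chosen with earlier results of these data known, so their calls are given as a description.

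Among 6 related peptides and binding proteins, 3 were tested. Ackr3, a scavenger receptor that takes up adrenomedullin and the chemokine Cxcl12, had 350.2 and 446 in Eva1 shRNA cells, against 2190 and 3115 in control cells. Both Eva1 shRNA arrays were several-fold below both control arrays (log2 change -2.88, SE 0.25, limma adjusted p = 0.00245), and Ackr3 was called in all 12 alternatives. Iapp, the amylin gene, had a log2 change of -0.69 (limma adjusted p = 0.208), and Crcp, the receptor component protein of the CGRP receptor, had 0.45 (adjusted p = 0.0822). Adm2 was blank on some array, and Gpr182 had no named probe.

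Of 11 genes of prohormone processing, 8 were tested, 1 fell, 0 rose and 7 were not called, with a median log2 change of -0.30. The share called was 12.5%, where 26.0% of all genes were called. Cpe, the carboxypeptidase that trims prohormones after cleavage, had 4269 and 4796 in Eva1 shRNA cells, against 11816 and 12466 in control cells. The probe stood above 98.0% to 99.4% of filled cells, and its fall (log2 change -1.62, SE 0.15, limma adjusted p = 0.00280) was called in all 12 alternatives. Pam, the enzyme that amidates CGRP and adrenomedullin, had 21.2 and 15.6 in Eva1 shRNA cells, against 20.3 and 14.7 in control cells, and was not called (log2 change -0.13). Pcsk1, Pcsk5 and Pcsk6 had blank cells.

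Of 7 peptidase genes, 5 were tested, 2 rose, 0 fell and 3 were not called, with a median of 0.60. The share called was 40%, where 26.0% of all genes were called. Ece1, an endothelin-converting enzyme that also degrades CGRP in endosomes, had 120.1 and 118 in Eva1 shRNA cells, against 21.0 and 18.2 in control cells. The arrays of each group were close to each other (log2 change 2.41, SE 0.16, limma adjusted p = 0.00129), and Ece1 was called in all 12 alternatives. Its relative Ece2 had a log2 change of 0.93 (adjusted p = 0.0135), a call that was lost without Eva1 shRNA array 1, Eva1 shRNA array 2 or control array 2, with an adjusted p of up to 0.0786. The peptidase list had 1 member called higher in each of these 3 cases.

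Of 35 genes of Gs and cyclic AMP signalling, 31 were tested, 3 rose, 2 fell and 26 were not called, with a median of -0.06. The share called was 16.1%, where 26.0% of all genes were called. Prkar2b, a regulatory subunit of protein kinase A, had a log2 change of 0.99 (SE 0.15, limma adjusted p = 0.00916), and Prkar1a, another such subunit named after its value was seen, had 0.58 (adjusted p = 0.0394). Rapgef4, a cyclic AMP-activated exchange factor also known as Epac2, had -1.34 (adjusted p = 0.00384), the adenylyl cyclase gene Adcy7 -1.14 (adjusted p = 0.0140) and the phosphodiesterase gene Pde8a 0.96 (adjusted p = 0.00840). The last 3 were under the array median on all arrays, and with 16 units added their changes were -0.59, -0.28 and 0.19, the last no longer called. Rapgef4 was called with each array left out, while Adcy7 lost it without either Eva1 shRNA array, Prkar2b without Eva1 shRNA array 2, Pde8a without Eva1 shRNA array 1 and Prkar1a without any 1 of the 4, with adjusted p-values of up to 0.0777, 0.0612, 0.0632 and 0.190 for these 4. With blank cells filled the calls of Adcy7 and Prkar1a were also lost, and that of Prkar1a with median centring and with a replicate block. With 1 array left out, 1 to 4 genes of the list rose and 1 to 3 fell: 1 and 1 without Eva1 shRNA array 1 or 2, 4 and 3 without control array 1, and 2 and 2 without control array 2. Gnas, the Gs alpha subunit gene, was not called (log2 change -0.70, adjusted p = 0.123).

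Of 15 target genes of the cyclic AMP-responsive factor CREB, 13 were tested, 2 rose, 0 fell and 11 were not called, with a median of 0.37. The share called was 15.4%, where 26.0% of all genes were called. Dusp1, a MAP kinase phosphatase gene, had 286 and 396 in Eva1 shRNA cells, against 157 and 161 in control cells (log2 change 0.91, SE 0.21, limma adjusted p = 0.0299). Nr4a1, an orphan nuclear receptor gene, had 245 and 278 in Eva1 shRNA cells, against 151 and 150.0 in control cells (log2 change 0.62, adjusted p = 0.0387). The call of Nr4a1 was lost whichever array was left out and that of Dusp1 without Eva1 shRNA array 2 or either control array, with adjusted p-values of up to 0.179 and 0.110. The list had 0 rises without Eva1 shRNA array 2 or control array 1, 1 without Eva1 shRNA array 1 (Dusp1) and 1 without control array 2 (Per1, a clock gene). It had 0 with blank cells filled and 1 (Dusp1) with a replicate block, settings where fewer of all genes were called. It had 5 with 16 units added, 5 without the dimmest probes, 7 with an eBayes trend and 6 with the authors' scaling. More of all genes were called in each of these settings as well. The authors' scaling raised the median log2 change of all genes to 0.18.

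**Figure D5:**
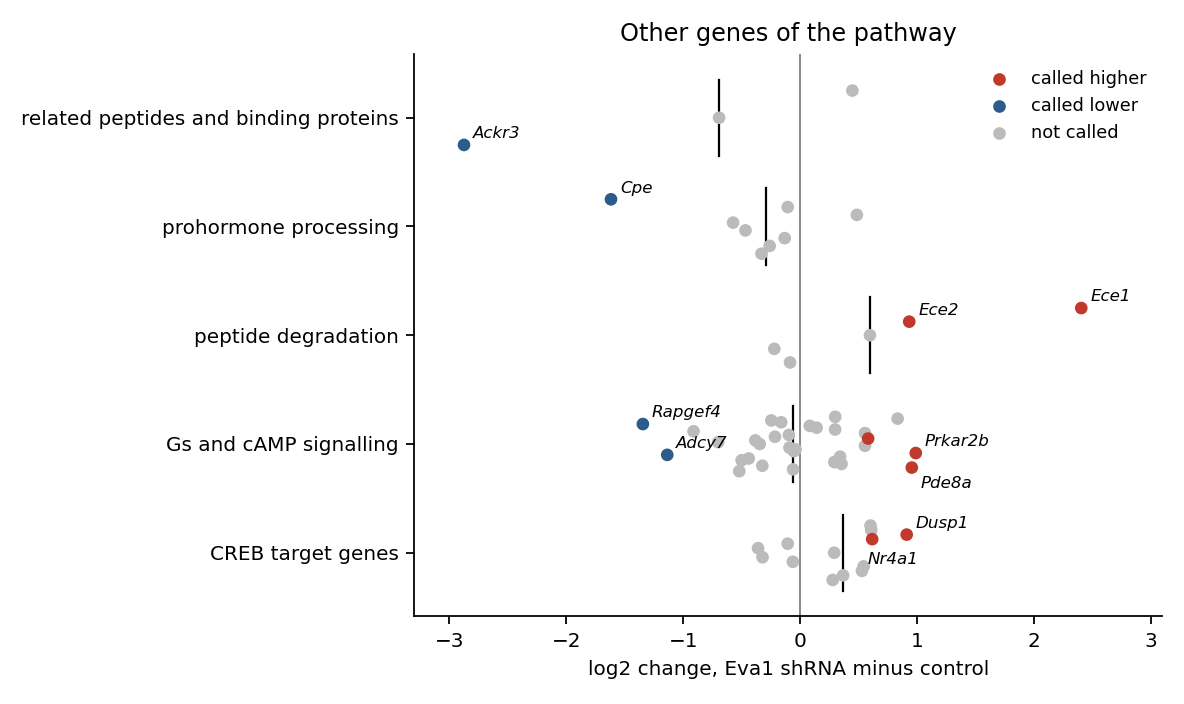
Log2 change (Eva1 shRNA minus control) of the 60 tested genes of 5 lists, with genes called higher in red, called lower in blue and not called in grey; vertical bars are list medians. Ackr3 (-2.88), Cpe (-1.62) and Ece1 (2.41) stand out, and most genes of Gs and cyclic AMP signalling lie within 1 unit of 0.

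Markers of other cell types were read because Calcrl and Ramp2 are typical of endothelium. Of 6 endothelial markers, 2 exceeded 4.71 on any array, Pecam1, Cdh5, Tek and Cldn5 were blank on at least 1 array, and the summed intensity was 24.1 to 28.7 in Eva1 shRNA cells and 23.3 to 24.2 in control cells. One of the 2 tested was called higher, Emcn, with 6.20 and 5.02 in Eva1 shRNA cells, against 3.11 and 2.65 in control cells. The sums of 6 pericyte and smooth muscle markers were 93.2 to 106 in Eva1 shRNA cells and 75.5 to 86.3 in control cells. Within that list Pdgfrb was called higher (mean 84.1 in Eva1 shRNA cells, 50.9 in control cells) and Rgs5 lower (4.16 in Eva1 shRNA cells, 18.8 in control cells). The sums of 6 microglia and macrophage markers were 161 to 166 in Eva1 shRNA cells and 215 to 242 in control cells. Their lower sum came from Cd68, called lower (83.3 in Eva1 shRNA cells, 165 in control cells), while Csf1r had 48.7 in Eva1 shRNA cells and 36.0 in control cells and was not called. The sums of 5 measured neuron markers were 95.4 to 116 in Eva1 shRNA cells and 70.2 to 70.4 in control cells, with Tubb3 called higher (60.8 in Eva1 shRNA cells, 29.3 in control cells). The leukocyte genes Ptprc and Itgam were blank or at most 2.48 on every array. The 5 measured neural stem and glioma cell markers summed to 539 to 551 in Eva1 shRNA cells and 690.0 to 698 in control cells. Most of that sum was Nes, and 3 of the 5 were called lower, Sox9, Fabp7 and Cd44. The calls in these marker lists stand beside 13.5% of all genes called lower and 12.5% called higher. The part of these differences in the changes of Calca, Calcb, Adm and Ramp2 was not tested.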

How the data were processed

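Per the labels' protocols, amplified total RNA of 4 NSCL61 samples carried 1 dye, Cy5, and was read on 3D-Gene mouse chips. The authors' deposited intensity values are linear, and their median is near 25 on each array. For the scanner, background correction and blank cells, the procedure is not given in the sources used.

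The platform annotation named a single gene for 16631 of 23473 probes and none for 6842; 3947 symbols were updated through RefSeq synonyms (GRCm38.p6) and 59 ambiguous and 3 unmatched ones kept. Log2 intensities of the 19199 probes with a value on all 4 arrays were quantile normalized, because array medians differed by 0.274, above a limit of 0.1. Each gene was read by its brightest probe. limma 3.58.1 (R 4.3.3) compared the groups with lmFit and eBayes, two-sided; p-values were adjusted by Benjamini-Hochberg over all 13765 genes, with a threshold of 0.05. With 2 arrays per group, 2 residual degrees of freedom limit the precision. Replicates correlated at r = 0.993 (Eva1 shRNA) and 0.991 (control) across probes.

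The members and lists were chosen with earlier results of these data known. Beyond the members and Mpzl2, the text names up to 4 called genes of each list with the largest changes, 3 tested neighbours on each side of Calca and Adm, and the 3 genes most like each of these. Other genes are named after their values were seen. The alternatives tried were other scalings (the authors' own, or median centring), 16 units added, blank cells filled with each array's minimum, the dimmest 25% of probes left out, a replicate block, an eBayes trend, averaged probes, and each array left out. The procedure was tested on simulated data with spreads shuffled between genes. Of 13765 genes, 67 were changed 1.5-fold, 67 were changed 2-fold and 66 were changed 4-fold. The procedure recovered 8.96% of 1.5-fold changes, 67.2% of 2-fold changes and 98.5% of 4-fold changes, with 11 false calls. In the data 26.0% of all genes were called. With that many low p-values the adjustment is less strict, so these rates are not the recovery in the data. A gene not called may still have changed by a small amount. Figures used matplotlib 3.10.9 (Python 3.11.15).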

Additional observations from a re-analysis of the deposited data

How the results depend on the processing

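The members were chosen from these values, and the lists with earlier results of these data known. How the calls of members and list genes held is therefore a description and no support. Calca, Calcb and Adm were lower and Ramp2 was higher in every alternative that gave a value, and Adm was called in 11 of 12. The count of members called lower was 4 with eBayes trend, 4 with 16 units added and 4 when the dimmest 25% of probes were left out, since Ramp1 joined; it was 3 whichever array was left out, but without Eva1 shRNA array 2 Calcrl stood in the place of Adm. The count called higher was 0 without the dimmest probes, because Ramp2 was among those left out, and 1 with each array left out. Over all genes, 3576 were called, and 4009 with the authors' scaling, 4914 with 16 units added and 5000 with eBayes trend. That total was 2516 of 16390 tested genes with blank cells filled and 4537 of 10679 without the dimmest probes. In the 5 pathway lists 7 genes were called higher. The count was 15 with the authors' scaling, 14 with eBayes trend and 4 with blank cells filled. It was 11 with 16 units added and 11 when the dimmest probes were left out. Pathway genes called lower numbered 4, and 7 with 16 units added, 8 with eBayes trend and 8 when the dimmest probes were left out. With 1 array left out the ranges were 2 to 6 higher and 3 to 5 lower. All called genes numbered 3576, and 1271 to 2301 with 1 array left out. The change of Mpzl2 ran from -3.29 to -2.98 with 1 array left out and was -1.71 with 16 units added; it was called in all 12 alternatives. With the authors' scaling 67.7% of calls were higher, against 48.1%, and the median change of all genes was 0.18 in place of -0.01. The replicate numbers mark no stated pairing, and deviations of same-numbered arrays correlated at r = -0.01. With the number as a replicate block 3102 genes were called, 3 members lower and 1 higher, and 5 pathway genes lower and 6 higher. Signal near background limits the sizes for Mpzl2, Calca, Calcrl and Ramp2.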
